A study of Polypterus senegalus with 8 samples.

Results

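Pectoral fins of the bichir (Polypterus senegalus), a ray-finned fish that regrows fins after amputation, were compared at 7 and at 3 days post amputation (dpa, also given as day 7 and day 3) for their microRNAs (miRNAs). Every miRNA row of the small RNA table was taken, 153 in all, in the library labelled 3 dpa and the library labelled 7 dpa, which are 2 of the 8 libraries of the series. The other small RNA libraries, from uninjured fins (0 dpa) and from 14 dpa, are given beside the values to show where each level stood. All fins came from fish of a commercial supplier whose strain, age and sex were not stated, and were cut with scalpels under anesthesia (MS222), and the tissue of several fish was pooled per stage before total RNA was isolated with TRI Reagent. Each stage has 1 library, so the spread between fish cannot be measured and no test between the stages was possible. The intervals below cover counting error only. They are 95% exact (Clopper-Pearson) intervals for changes and levels, and 95% Wilson intervals for shares of reads unless named as exact.

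A miRNA is a short RNA that guides silencing proteins to messenger RNAs, lowering their stability or translation. Bases 2 to 8 of the mature miRNA, the seed, do most of the pairing with targets, so miRNAs that share a seed form a family with overlapping targets. After fin amputation a wound epidermis first covers the stump, and a blastema, a mass of proliferating and less differentiated cells, then forms under it. In the study's description the bichir pectoral fin has formed a blastema by 7 dpa, so the comparison steps from the wound stage to the blastema stage.

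The mature sequences that the results turn on are printed 5′ to 3′ from the list that accompanies the study, with the seed in capitals and T written for U. The 9 let-7 members share a seed and differ only further downstream, yet they changed unequally.
let-7a: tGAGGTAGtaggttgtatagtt
let-7b: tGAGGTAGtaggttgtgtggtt
let-7c: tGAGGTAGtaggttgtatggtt
let-7d: tGAGGTAGttggttgtatagtt
let-7e: tGAGGTAGtagattgaatagtt
let-7f: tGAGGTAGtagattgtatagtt
let-7g: tGAGGTAGtagtttgtgctgtt
let-7h: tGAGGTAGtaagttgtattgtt
let-7j: tGAGGTAGttgtttgtacagtt
The miR-30 5p arms and the pair miR-99 and miR-100 are shown because members with an identical seed changed unequally.
miR-30b: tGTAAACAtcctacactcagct
miR-30c: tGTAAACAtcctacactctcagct
miR-30d: tGTAAACAtccccgactggaagc
miR-30e: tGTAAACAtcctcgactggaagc
miR-99: cACCCGTAgatccgatcttgtg
miR-100: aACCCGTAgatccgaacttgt
The next pairs differ by a single base (miR-29b and miR-29a, miR-19b and miR-19c) or only by the length of the 3′ end (miR-26b and miR-26a, miR-454a and miR-454b).
miR-29b: tAGCACCAtttgaaatcagtta
miR-29a: tAGCACCAtttgaaatcggtta
miR-19b: tGTGCAAAtccatgcaaaactga
miR-19c: tGTGCAAAtccatgcaaaactca
miR-26b: tTCAAGTAatccaggatagg
miR-26a: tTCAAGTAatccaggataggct
miR-454a: tAGTGCAAtattgcttatagg
miR-454b: tAGTGCAAtattgcttatagggt
The last set holds the most abundant miRNA (miR-21) and miRNAs with large rises (miR-205, miR-214, miR-221, miR-222a) or falls (miR-203a, miR-725, miR-144).
miR-21: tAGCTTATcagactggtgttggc
miR-205: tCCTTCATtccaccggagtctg
miR-214: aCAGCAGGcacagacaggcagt
miR-221: aCCTGGCAtacaatgtagatttct
miR-222a: aGCTACATctggctactgggtct
miR-203a: gTGAAATGtttaggaccacttg
miR-725: tTCAGTCAttgtttctggtaga
miR-144: gGATATCAtcatatactgtaag

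The 7 dpa library held 196763 miRNA reads against 3353354 at 3 dpa, 17.0 times fewer, with 6083774 at 0 dpa and 6858045 at 14 dpa. A single read was worth 5.08 CPM (reads scaled to 1000000 miRNA reads) at 7 dpa and 0.298 CPM at 3 dpa, so levels under 15.2 CPM, the value of 3 reads, could not be resolved at 7 dpa. At 7 dpa 89 miRNAs had 100 reads or more, against 118 at 3 dpa. The 7 dpa library also stood apart in composition. Among the 142 miRNAs whose mean over the 4 libraries reached 10 CPM, Spearman's rho of its levels was 0.73 with 3 dpa, 0.70 with 0 dpa and 0.67 with 14 dpa. Among the other libraries rho was 0.80 to 0.93 (across 142 miRNAs, which are not independent replicates). With library totals the 7 dpa level was the highest of the 4 for 45.1% and the lowest for 23.2%. With a median of ratios these shares were 36.6% and 35.9%. With library totals the 0 dpa level was the highest for 35.2% and the 14 dpa level the lowest for 44.4%. Its shallow depth goes with every value below, and the part of depth, or of any other property of this library, was not tested. Stage and library cannot be told apart.

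More miRNAs were higher than lower at 7 dpa. On library totals 82 of the 142 (57.7%) were over 1.5-fold higher at 7 dpa than at 3 dpa and 37 (26.1%) were over 1.5-fold lower, and 23 lay within 1.5-fold. Changes are differences of log2(CPM + 1), a scale that understates changes of low miRNAs, and they stand in brackets with their intervals below. They ranged widely, with the middle 50% between -0.91 and 3.45, and 57 miRNAs were over 4-fold higher while 15 were over 4-fold lower. The median change was 1.09 with library totals but -0.16 with a trimmed mean of log ratios and -0.25 with a median of ratios, so the excess of rises rests on the scaling, and the split became 60 higher and 62 lower, or 59 and 62. For this reason each change is read against the median of 1.09, and a miRNA is said below to have risen or fallen only where its whole counting interval lay past 1.5-fold under 4 scalings (library totals, trimmed mean, median of ratios, and totals without miR-21). By this rule 51 miRNAs (35.9%) rose and 32 (22.5%) fell, and these shares are the background for each list that follows. The mean that sets the filter includes the 7 dpa library, so a miRNA could enter, and rise, only through a high 7 dpa level. The plot of levels at 3 and 7 dpa shows both clouds on either side of the diagonal.

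**Figure D1:**
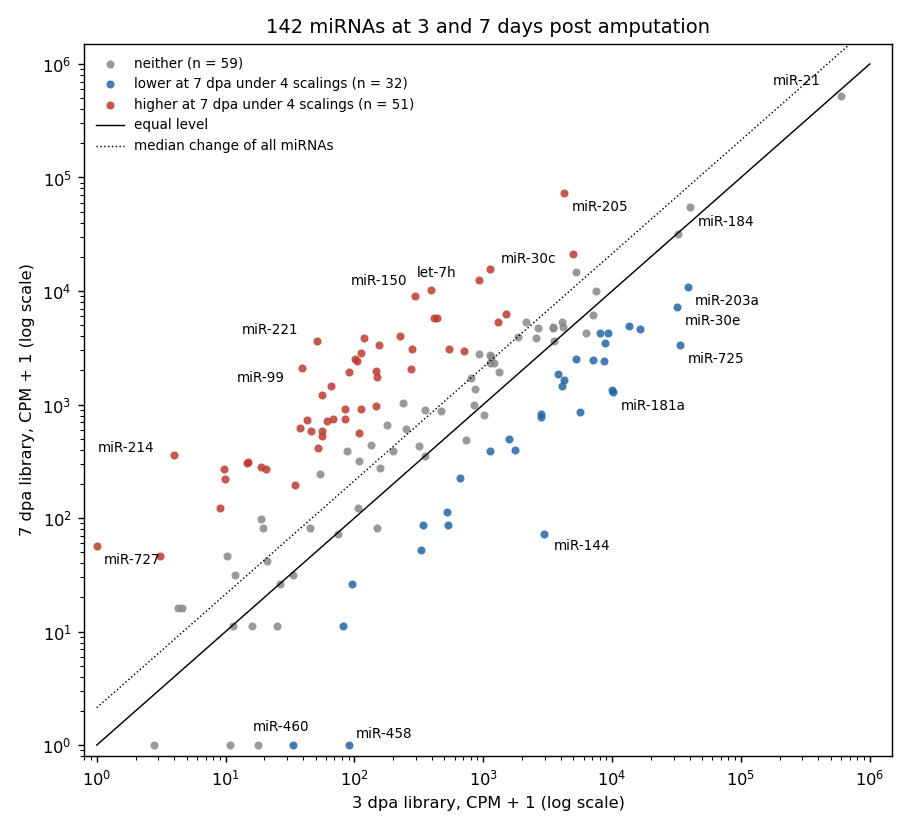
Level of each of 142 miRNAs in the 3 dpa library (x axis) and the 7 dpa library (y axis), in CPM + 1 on log scales, with 1 library per stage. Red points are the 51 miRNAs that were higher and blue points the 32 that were lower under 4 scalings; the solid line marks equal levels and the dotted line the median change of 1.09 on the log2 scale. miR-21 lies far to the upper right, close to the solid line.

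miR-21, a miRNA induced in wounds and in many regenerating and tumour tissues, made up more of the reads than all others together at both stages. It took 60.3% (95% Wilson interval 60.3 to 60.4) of reads at 3 dpa and 52.7% (95% Wilson interval 52.5 to 52.9) at 7 dpa, and its levels were 145357 CPM before amputation, 603272 on day 3, 526933 on day 7 and 624670.0 on day 14. Its change was -0.20 (interval -0.20 to -0.19) with library totals and -1.45 with the trimmed mean, and it did not pass the rule in either direction. Below miR-21 the ranking turned over, and 4 of the 10 most abundant miRNAs of the 3 dpa library were also among the 10 most abundant at 7 dpa. These 4 were miR-21, miR-184, miR-203a and miR-146a.

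miR-205, a miRNA of keratinocytes and other stratified epithelia that in mammals restrains the epithelial-to-mesenchymal transition, became the most abundant miRNA after miR-21. Its levels were 7840.0 CPM before amputation, 4240.2 on day 3, 73261 on day 7 and 5144 on day 14, so the 7 dpa library stood above the other 3. The difference from 3 dpa was 17.3-fold, a change of 4.11 (interval 4.08 to 4.14), and miR-205 alone took 7.33% (95% Wilson interval 7.21 to 7.44) of 7 dpa reads and 0.424% (95% Wilson interval 0.417 to 0.431) of 3 dpa reads. miR-200a, an epithelial miRNA, also entered the leading 10, with 4934 CPM on day 3 and 21381 on day 7 (2.12, interval 2.07 to 2.16). miR-30c (1131 CPM on day 3 and 15694 on day 7), miR-130c (924 CPM on day 3 and 12390.5 on day 7) and let-7h (393 CPM on day 3 and 10246 on day 7) entered it from ranks 47, 52 and 65. All of these rose by the rule, and relative to the median of all miRNAs miR-205 changed by 3.02. miR-142a, found throughout blood cells, entered it too with 5279.8 CPM on day 3 and 14688 on day 7 but did not pass the rule, and its change of 1.48 was near the median of all miRNAs. The sequence list names miR-142a under both arms, and its listed sequence largely overlaps the zebrafish 3p arm given by the study.

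The miRNAs that left the leading 10 fell. miR-725, which was among the leading 5 miRNAs of the wound stage, had 10211 CPM before amputation, 33774 on day 3, 3334 on day 7 and 13433 on day 14, a change of -3.34 (interval -3.45 to -3.23), and was 10.1-fold lower at 7 than at 3 dpa. miR-30e had 32001 CPM on day 3 and 7191 on day 7 (-2.15, interval -2.23 to -2.08) and miR-101b, which in mammals represses the chromatin enzyme Ezh2, had 16446 CPM on day 3 and 4635 on day 7 (-1.83, interval -1.92 to -1.73). miR-30d completed this group with 13431 CPM on day 3 and 4884 on day 7, together with miR-181a and miR-143, which are described below. Relative to the median of all miRNAs, miR-725 changed by -4.43 and miR-30e by -3.25. miR-203a stayed among the 10 but fell from 38571 to 10846 CPM, and it is described with the skin miRNAs.

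Among the 120 miRNAs whose mean reached 100 CPM, the 10 largest rises were all past the rule. miR-221 led them with 60.8 CPM before amputation, 50.7 on day 3, 3629 on day 7 and 42.9 on day 14, a change of 6.13 (interval 5.89 to 6.38) and a 71.6-fold difference. The mean includes the 7 dpa library, and miR-221 reached 100 CPM only through that library. The sequence list names this row both miR-221-1-3p and miR-221-5p. Its listed sequence holds the whole zebrafish miR-221-5p sequence given by the study, so the listed sequence is that of the 5p arm. miR-99, which in mammals targets the kinase mTOR, followed with 379 CPM before amputation, 38.2 on day 3, 2114 on day 7 and 49.3 on day 14 (5.75, interval 5.47 to 6.05). Both miR-221 and miR-99 stood higher at 7 dpa than in any of the other 3 libraries.

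The other large rises were 4 let-7 members, miR-150, miR-208, miR-222a and miR-29a, with changes from 4.48 (miR-29a) to 5.03 (let-7j). miR-150, a miRNA of mature lymphocytes, had 1441 CPM before amputation, 296 on day 3, 9092 on day 7 and 72.9 on day 14 (4.93, interval 4.82 to 5.05). miR-222a, a relative of miR-221 encoded beside it in vertebrates, had 300.0 CPM before amputation, 111 on day 3, 2841 on day 7 and 30.3 on day 14. miR-208, encoded in a myosin heavy chain gene in mammals, rested on 29 reads on day 3 and 53 on day 7, which gave an interval of 4.17 to 5.45 around its change of 4.81. With a lower mean level, miR-214, a miRNA of mesenchyme, changed still more, from 10 reads at 3 dpa to 70 in the far smaller 7 dpa library, or 2.98 CPM on day 3 and 356 on day 7 (6.49, interval 5.69 to 7.28). Of the 51 miRNAs that rose, 22 had more reads at 7 dpa than at 3 dpa in spite of the 17.0-fold lower depth.

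The falls were led by miR-458, with 300 reads at 3 dpa and a listed 0 at 7 dpa. Against 3 reads at 7 dpa (15.2 CPM) in place of 0, miR-458 was 5.87-fold lower, and the upper end of its counting interval was -2.19. It was present at 0 dpa (724 CPM) and at 14 dpa (190.1 CPM). miR-460 went the same way, from 108 reads to a listed 0, 2.11-fold lower against 3 reads, with an upper interval end of -0.73. It was present in the other 2 libraries at 152 and 38.2 CPM. The sequence list also names miR-460 as a 5p arm, and its listed sequence is close to the zebrafish 5p arm given by the study.

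miR-144, which red blood cell precursors express and which is listed here as a 5p arm, had 138 CPM before amputation, 2986 on day 3, 71.2 on day 7 and 143 on day 14. It was 42-fold lower at 7 than at 3 dpa (-5.37, interval -6.23 to -4.63). Its level in the 3 dpa library thus stood above the other 3. miR-181a, abundant in lymphocytes of mammals, fell (-2.99, interval -3.17 to -2.81) and was higher at 14 dpa (16754 CPM) than at 3 dpa (10219.9 CPM). The other large falls were miR-143 (-2.89), miR-1b (-2.73), miR-10a (-2.67), miR-192 (-2.62), miR-152 (-2.21) and miR-30e (-2.15). The smallest counts among these were the 10 reads of miR-10a and the 17 reads of miR-192 at 7 dpa.

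A few miRNAs had 3 reads or fewer at 7 dpa and over 50 at 3 dpa. Besides miR-458 and miR-460 they were miR-454a (57 reads and a listed 0), miR-132 (270 and 2 reads) and miR-730 (81 and 2 reads). miR-132, induced by activity in neurons of mammals, fell by the rule (-2.87, interval -5.20 to -1.10), whereas miR-454a and miR-730 did not pass it, with interval ends of 0.18 and 0.63 on the upper side. In the other direction miR-727, named here after its values were seen, had a listed 0 at 3 dpa and 11 reads at 7 dpa. It was 62.5-fold higher against 3 reads at 3 dpa, and was also listed at 0 at 14 dpa. That fold leaves out the counting error of the 7 dpa reads, so it is not a lower bound. The mean of miR-727 passed the filter only through the 7 dpa library.

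The members of the let-7 family, which promotes differentiation from worms to mammals, separated into different groups. let-7b, let-7g, let-7h and let-7j rose by 4.52 to 5.03. let-7a, let-7c, let-7d and let-7f changed by -0.55 to 0.44 and did not pass the rule, and let-7e fell (-1.34, interval -1.46 to -1.23). let-7h had 2136 CPM before amputation, 393 on day 3, 10246 on day 7 and 165 on day 14, and let-7j had 445 CPM before amputation, 117 on day 3, 3873 on day 7 and 73.5 on day 14. let-7b (321 CPM before amputation, 104 on day 3, 2419 on day 7 and 191 on day 14) and let-7g (316 CPM before amputation, 100.5 on day 3, 2536 on day 7 and 93.5 on day 14) had the same shape, high in the 7 dpa library and low in the other 3. let-7a, in contrast, had 16371 CPM before amputation, 7498 on day 3, 9931 on day 7 and 10766 on day 14, with no peak at 7 dpa. Together the 4 members that rose, grouped after their values were seen, held 2.59% of let-7 reads on day 3 (95% Wilson interval 2.49 to 2.69) and 44.9% on day 7 (43.8 to 46.0), against 3.75% before amputation and 1.39% on day 14.

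These let-7 members differ from let-7a by few bases, none of them in the seed. Counted from the 5′ end, with the base of let-7a first, let-7b differs by A17G and A19G, let-7h by G11A and A19T, let-7j by A10T, G12T and T18C, and let-7g by G12T, A17G, T18C and A19T. let-7c, which carries A19G alone, did not move against let-7a: it had 4.21% as many reads as let-7a at 3 dpa and 4.30% at 7 dpa. let-7b, which adds A17G to it, had 1.39% as many reads as let-7a at 3 dpa and 24.4% at 7 dpa. let-7h had 5.24% as many as let-7a at 3 dpa, 103% at 7 dpa and 1.53% at 14 dpa. How reads of such near-identical members were assigned is not visible in the table.

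The miR-30 family, which in mammals represses the mesenchymal regulator Snai1, divided in the same way. miR-30c (3560.3 CPM before amputation, 1131 on day 3, 15694 on day 7 and 542 on day 14) and miR-30b (2398 CPM before amputation, 415 on day 3, 5794 on day 7 and 126 on day 14) rose by 3.79 and 3.80. miR-30e (37350.2 CPM before amputation, 32001 on day 3, 7191 on day 7 and 23495 on day 14) and miR-30d (21595 CPM before amputation, 13431 on day 3, 4884 on day 7 and 13388 on day 14) fell by 2.15 and 1.46 on the log2 scale. All 4 are 5p arms with the seed GTAAACA. At 3 dpa miR-30b and miR-30c together held 3.29% of the reads of these 4 (3.20 to 3.38), and at 7 dpa they held 64.0% (62.9 to 65.2), against 9.18% at 0 dpa and 1.78% at 14 dpa. miR-30a, listed as a 3p arm with another seed, fell as well (-1.84, interval -1.98 to -1.71).

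Other small families with a shared seed also changed unequally. miR-99 rose while miR-100, which has the same seed, did not pass the rule (-0.58, interval -0.88 to -0.28), so miR-99 went from 4.99% of their joint reads at 3 dpa (4.21 to 5.90) to 81.2% at 7 dpa (77.6 to 84.4). In the miR-15 and miR-16 family, which in mammals represses cyclins, miR-15a, miR-15b, miR-16a and miR-457a rose by 3.14 to 3.89, but the abundant miR-16b had 3457 CPM on day 3 and 4726 on day 7 and did not pass the rule (0.45, interval 0.35 to 0.55). The 4 that rose held 13.2% of the reads of these 5 at 3 dpa (12.6 to 13.8) and 56.3% at 7 dpa (54.2 to 58.4). The plot of family shares shows that in each of these 4 families the share was highest at 7 dpa. Among risen members not plotted, miR-145 beside miR-143, and miR-221 with miR-222a beside miR-222b, sets without a shared seed, also had their highest share there. miR-92b beside miR-92a did not, with 16.7% at 0 dpa and 15.9% at 7 dpa. In the 4 plotted families every member that rose had a lower level at 14 dpa than every member that did not. How far level bears on these splits was not tested.

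**Figure D2:**
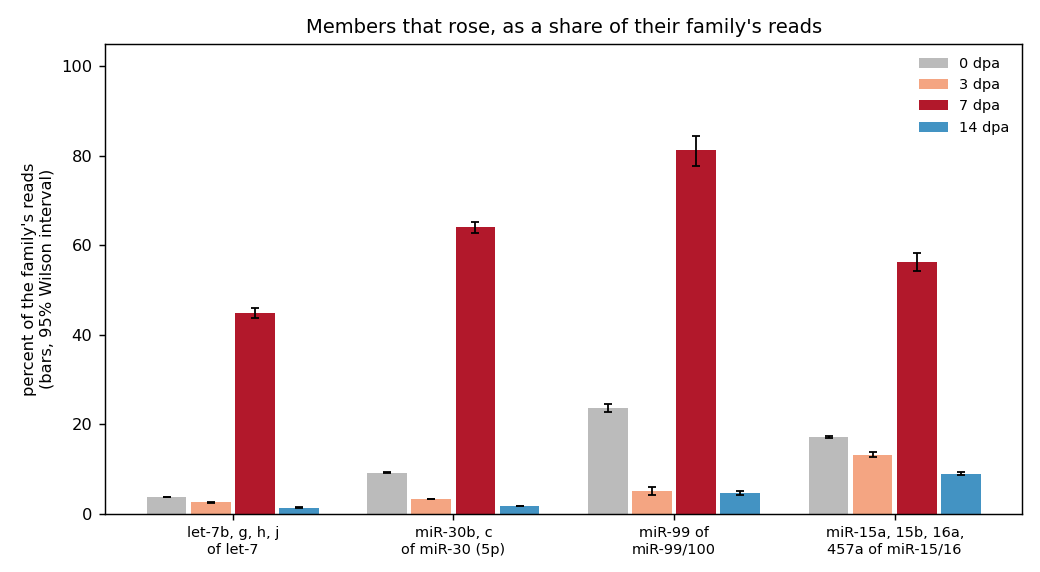
Percent of a family's reads held by the named members that rose (y axis) in each of the 4 small RNA libraries, for 4 families, with 95% Wilson intervals for counting error; 1 library per stage, and members were grouped after their values were seen. The 7 dpa bar is the tallest in each family, 44.9% for let-7 and 81.2% for miR-99 and miR-100, and the 3 and 14 dpa bars are at most 13.2%.

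Across all seeds, 64 of the 142 miRNAs fell into 20 groups with a shared seed. The difference between the highest and the lowest change within a group had a median of 2.64 on the log2 scale, and in 8 groups it was over 4. Among these, the group of miR-454a and the pair miR-736 and miR-208 rest on members listed at 0 at 7 dpa. miR-454a had 57 reads at 3 dpa and miR-736 had 6. The quartiles of the change over all 142 miRNAs were -0.91 and 3.45. Spans of miRNAs without a shared seed were not computed, so whether seed groups spread more or less than others was not tested. In 4 groups at least 1 member rose and at least 1 fell: let-7, miR-30, the group of miR-25, miR-92a, miR-92b and miR-363, and the pair miR-34a and miR-34c. miR-92b rose (4.10, interval 3.76 to 4.44) and miR-25 fell (-1.55, interval -1.68 to -1.42), while miR-92a, a product of the miR-17 to miR-92 cluster that promotes proliferation in mammals, had 2561 CPM on day 3 and 3857 on day 7. miR-34a, a target of p53 in mammals, rose (2.73, interval 2.48 to 2.98) and miR-34c fell (-1.97, interval -2.74 to -1.29). The families differ in how far their members spread, as the plot of family members shows: the 5 miRNAs of the seed AAAGTGC (miR-17a, miR-20a, miR-20b, miR-93, miR-106a) stayed between -0.01 and 1.33, and none passed the rule.

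**Figure D3:**
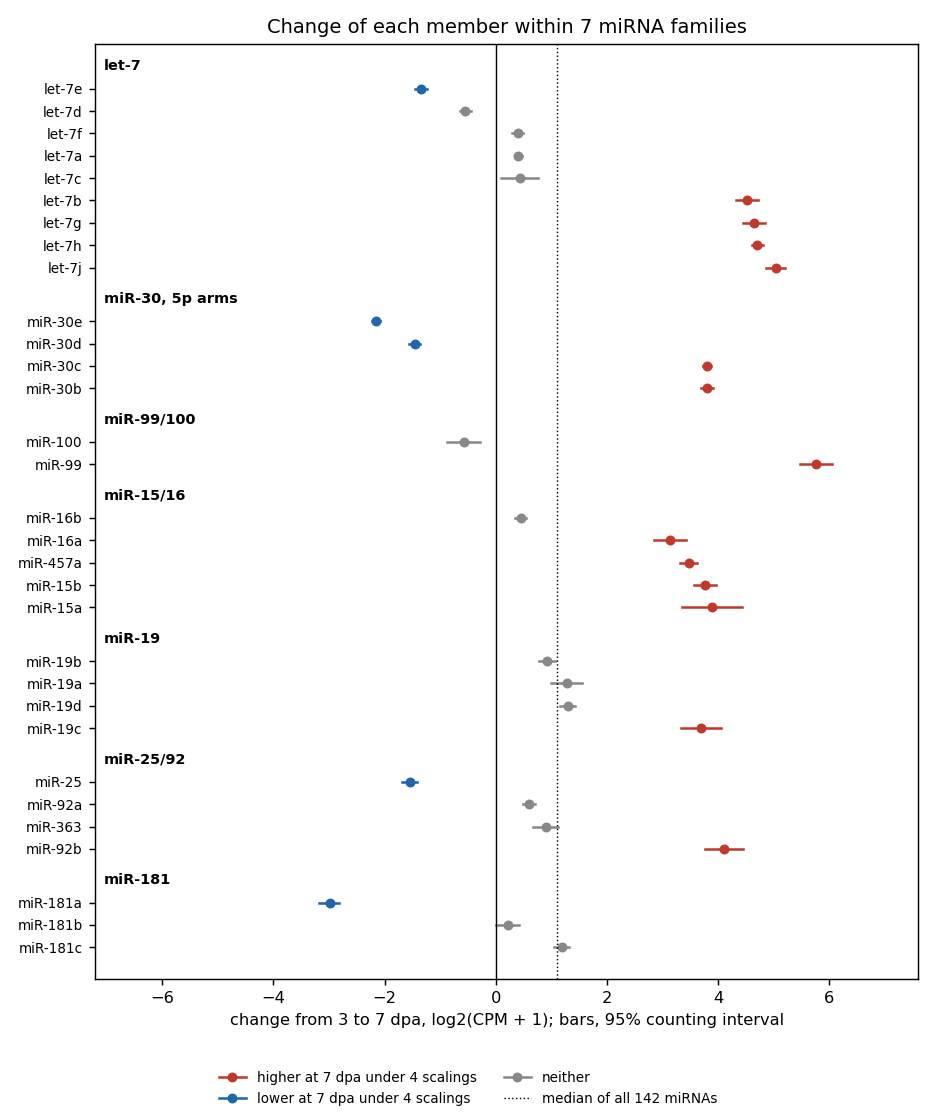
Change from 3 to 7 dpa on the log2(CPM + 1) scale (x axis) for each member of 7 miRNA families (y axis), with 95% counting intervals as bars; 1 library per stage. Red members rose and blue members fell under 4 scalings, grey members did neither, and the dotted line is the median of all 142 miRNAs (1.09). In the let-7 family 4 members lie between 4.52 and 5.03 and the other 5 between -1.34 and 0.44.

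Other lists of miRNAs related by name were counted in the same way. Of miR-221, miR-222a and miR-222b, 2 rose and miR-222b fell (1127 CPM on day 3 and 391 on day 7, -1.52, interval -1.87 to -1.20), but their seeds differ and miR-222b, like miR-221, is also named as a 5p arm, so these values do not compare members of a seed family. The listed miR-222b sequence is closer to the zebrafish miR-222a 5p arm given by the study than to the zebrafish miR-222b 5p arm. This row may thus be the other arm of miR-222a. Of the 6 members of the miR-130, miR-301 and miR-454 group, 5 rose (changes from 3.71 to 4.46), and their summed level went from 1138 to 16533 CPM, against 9602 CPM before amputation and 2129 CPM on day 14. The sixth, miR-454a, was listed at 0 at 7 dpa. The listed miR-130a is miR-130c with extra bases at the 3′ end, and miR-454b is miR-454a with extra bases, so these rows may not be separate miRNAs. miR-130b and miR-301a of this list have other seeds than the rest, and miR-301a is also named as a 5p arm. Of miR-125a, miR-125b, miR-99 and miR-100, 3 rose and none fell. Of the 14 members of the miR-17 to miR-92 cluster and its paralogs, 2 rose (miR-19c and miR-92b), 1 fell (miR-25) and the median change was 0.98, near the median of all miRNAs. That list median turned to -0.28 with the trimmed mean and -0.37 with the median of ratios. In the miR-29 family, which represses collagens in mammals, miR-29a rose (64.4 CPM on day 3 and 1459 on day 7, 4.48, interval 4.22 to 4.74) and miR-29b did not pass the rule (2.11, interval 1.88 to 2.34).

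In the miR-181 family miR-181a fell and miR-181b and miR-181c did neither, and in the miR-26 family miR-26b fell (-1.03, interval -1.18 to -0.88) and miR-26a did not pass the rule (1.09, interval 0.98 to 1.20). Of miR-101b, miR-148 and miR-152, 2 fell (miR-101b and miR-152) and none rose, with a median of -1.83. In the Hox clusters, which pattern the body axis and the limbs, miR-10a and miR-10b fell (-2.67, interval -3.71 to -1.80 and -1.14, interval -1.24 to -1.04) and miR-196a rose (2.97, interval 2.58 to 3.36). miR-196a had 120.5 CPM before amputation, 51.6 on day 3, 412 on day 7 and 652 on day 14, and was thus higher at 14 than at 7 dpa, unlike most miRNAs that rose. Of the 7 members of the miR-23, miR-24 and miR-27 list, miR-23a rose (2.06, interval 1.97 to 2.15), miR-27a fell (-2.15, interval -2.49 to -1.83) and the other 5 did neither. miR-27a is listed as a 5p arm with another seed than miR-27b, miR-27d and miR-27e, which are 3p arms. miR-24b is listed as a 5p arm too.

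The skin, muscle, cartilage and blood cell miRNAs below were detected in both libraries. Markers of single tissues showed both directions, and in pooled tissue fewer cells of a type and less RNA per cell cannot be told apart. Among 5 muscle miRNAs, miR-1b (178922 CPM before amputation, 5652 on day 3, 854 on day 7 and 9492 on day 14) and miR-206 (53833 CPM before amputation, 2789 on day 3, 783 on day 7 and 12619 on day 14) fell, miR-208 rose, and miR-133a (1.90) and miR-499 (2.08) did not pass the rule. Muscle miRNAs summed to 8644 CPM on day 3 and 2648 CPM on day 7, 3.26-fold lower, against 247585 CPM in uninjured fins and 22364 CPM on day 14. Both red blood cell miRNAs fell. miR-451, which is processed without Dicer and supports red cell maturation, had 140.4 CPM before amputation, 4098 on day 3, 1448 on day 7 and 662 on day 14 (-1.50, interval -1.67 to -1.33), and the sum with miR-144 went from 7084 to 1520 CPM.

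Of the 5 white blood cell miRNAs, miR-150 and miR-223 rose, a share near the 35.9% of all miRNAs, and none fell. Their median change was 2.04, beside 1.09 for all miRNAs. miR-223, a miRNA of neutrophils and other myeloid cells, had 314 CPM before amputation, 1301 on day 3, 5362 on day 7 and 181 on day 14 (2.04, interval 1.94 to 2.14). miR-155, found in activated lymphocytes and macrophages, had 48.2 CPM before amputation, 86.2 on day 3, 391 on day 7 and 24.9 on day 14. It did not pass the rule. Its change was 2.17 (interval 1.79 to 2.54) with library totals and 0.92 with the trimmed mean. The rule needs the whole counting interval past 1.5-fold under each scaling, not only the change. miR-146a, which inflammatory signalling induces in mammals, was abundant at both stages, 32618 CPM on day 3 and 31540.5 on day 7.

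Among the 4 skin miRNAs, miR-205 rose and miR-203a fell, so these keratinocyte miRNAs moved in opposite directions. miR-203a, which promotes keratinocyte differentiation in mammals and in zebrafish represses lef1 in the regenerating fin, had 4962 CPM before amputation, 38571 on day 3, 10846 on day 7 and 30760.2 on day 14 (-1.83, interval -1.89 to -1.77). miR-184, a miRNA of the epidermis and cornea, had 40505 CPM on day 3 and 54416 on day 7 (0.43, interval 0.40 to 0.45). miR-203b had 351.3 CPM on day 3 and 350.7 on day 7 (-0.003, interval -0.37 to 0.35). Its row carries both arm names. The listed sequence is close to the zebrafish miR-203b 5p arm and has another seed than miR-203a. Neither miR-184 nor miR-203b passed the rule. In the miR-200 family, which maintains epithelial character, miR-200a rose, miR-200c fell (-0.93, interval -1.03 to -0.83), and miR-429a (1.59) and miR-200b (0.21) did not pass the rule. That list's median of 0.90 turned to -0.35 with the trimmed mean and -0.44 with the median of ratios.

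In the lists for connective and vascular tissue the members differed. Among cartilage and mesenchyme miRNAs, miR-199, which is made from one transcript with miR-214, had 4742 CPM before amputation, 439.6 on day 3, 5758 on day 7 and 939 on day 14 (3.71, interval 3.60 to 3.82) and rose with miR-214. miR-140, the miRNA of cartilage, had 3522 CPM on day 3 and 3634 on day 7 (0.05, interval -0.07 to 0.15), and miR-455 (0.79) also passed in neither direction. miR-143 and miR-145, made from a single transcript in smooth muscle, separated: miR-143 fell (43003 CPM before amputation, 9919 on day 3, 1337 on day 7 and 5474 on day 14) and miR-145 rose (2684 CPM before amputation, 60.5 on day 3, 722 on day 7 and 19.5 on day 14). As a result miR-145 went from 0.607% of their joint reads on day 3 (0.529 to 0.696) to 35.1% on day 7 (30.6 to 39.8), with 5.88% before amputation and 0.356% on day 14. miR-126a, the endothelial miRNA, fell (-1.55, interval -2.01 to -1.12). The rows of miR-199 and miR-126a carry both arm names in the sequence list.

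miR-183 and miR-182, which are known from sensory hair cells and come from a cluster with miR-96, fell by 1.68 and 1.36 on the log2 scale, while miR-96 had 53.1 CPM on day 3 and 244 on day 7 and did not pass the rule (2.18, interval 1.69 to 2.64). Of the 5 neuronal miRNAs, 3 passed the filter on low levels, of which miR-132 and miR-9 fell and miR-138 did neither. miR-9 had 316 reads at 3 dpa and 5 at 7 dpa, and miR-153b was listed at 0 at 7 dpa. Over the 4 libraries the neuronal sum was at most 242 CPM. How far a change in the share of any of these cell types bears on the other results was not tested.

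**Figure D4:**
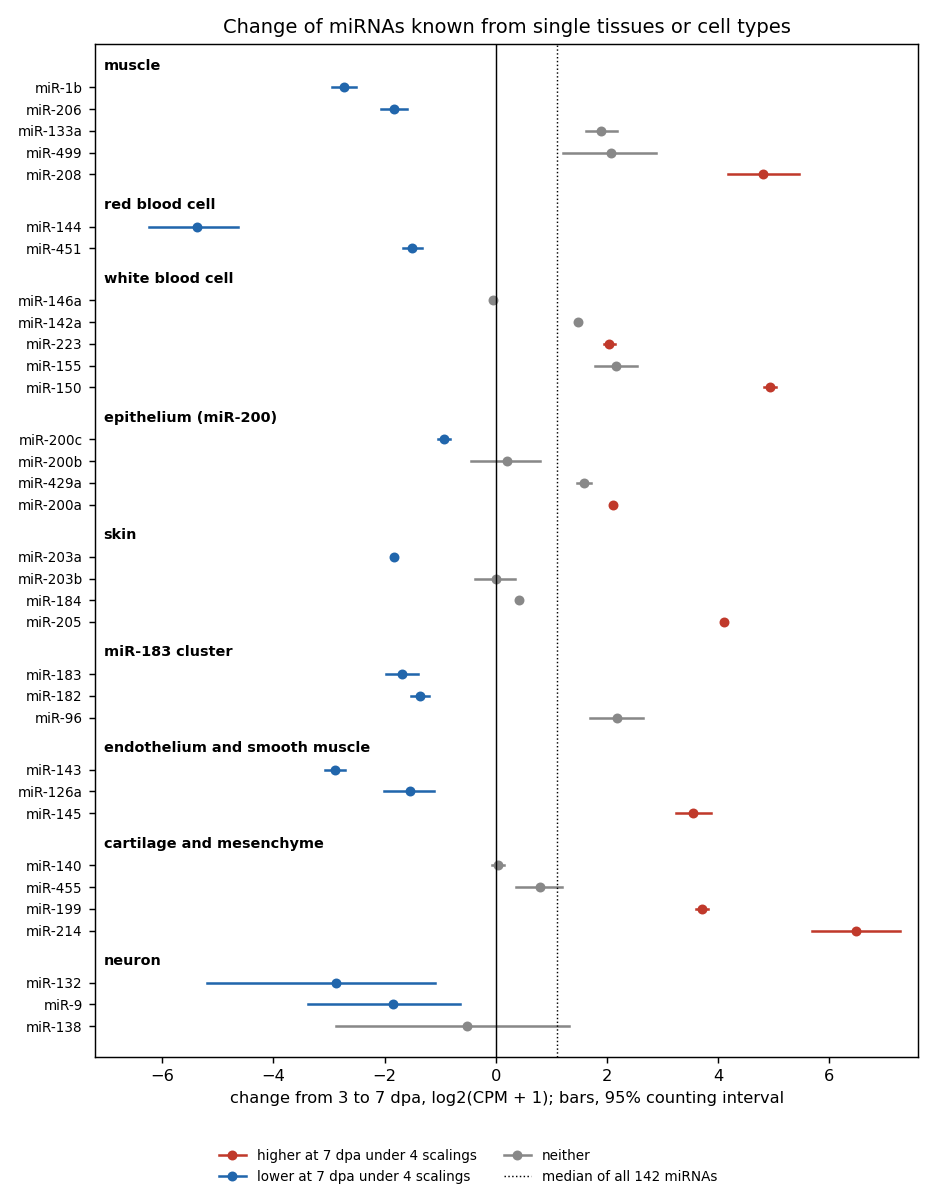
Change from 3 to 7 dpa on the log2(CPM + 1) scale (x axis) of miRNAs known from single tissues or cell types (y axis, grouped by list), with 95% counting intervals as bars; 1 library per stage. Red miRNAs rose and blue ones fell under 4 scalings, grey did neither, and the dotted line is the median of all 142 miRNAs (1.09). Several lists hold points on both sides of the median, from -5.37 (miR-144) to 6.49 (miR-214).

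The study lists 10 miRNAs that changed in common by sequencing in regenerating appendages of zebrafish, bichir and axolotl. Its qRT-PCR found a shared direction in every species only for miR-21, miR-181c and miR-31, which were raised. In the bichir, qRT-PCR also found miR-181b and miR-7b raised and miR-204 and miR-133a lowered. The list was chosen partly on the 0 and 7 dpa libraries used here, so it is not independent evidence of its direction. Of the 5 listed as raised in common, miR-31 (53.7 CPM before amputation, 89.5 on day 3, 1952 on day 7 and 121 on day 14, 4.43, interval 4.21 to 4.65) and miR-7b (62.6 CPM before amputation, 54.9 on day 3, 1204 on day 7 and 33 on day 14, 4.43, interval 4.15 to 4.71) rose between 3 and 7 dpa. miR-181c (1.19) and miR-181b (0.22) did not pass the rule, and neither did miR-21. The listed miR-181c is the miR-181b sequence with an extra T at the 3′ end, and it starts with A where zebrafish miR-181c starts with C. Both miR-31 and miR-7b stood highest at 7 dpa. The sequence list also names the miR-31 row miR-31-3p, and its listed sequence is close to the zebrafish 3p arm. The zebrafish miR-31 that the study analyzed is the 5p arm, so the miR-31 values here are those of another arm.

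Of the 5 listed as lowered in common (miR-24, miR-133a, miR-204, miR-338 and miR-2184), none fell from 3 to 7 dpa. miR-2184 rose, with 3548 CPM before amputation, 66.8 on day 3, 747 on day 7 and 10.8 on day 14 (3.46, interval 3.16 to 3.77), which left it below its level in uninjured fins. The other 4 changed by 0.83 to 1.90 and did not pass the rule. The summed level of the 5 was 29664 CPM in uninjured fins, 3061 CPM on day 3, 6612 CPM on day 7 and 1250 CPM on day 14.

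The changes were compared with features of the mature sequence that did not enter the choice of miRNAs. In 7 pairs a member is the other with extra bases at the 3′ end, and in all 7 the longer member had the larger change. Whether such rows are separate miRNAs or length forms of a single miRNA cannot be told here. The lists and seed groups above count them as separate members. The counting intervals of both changes overlapped for miR-130c with miR-130a, miR-218b with miR-218a and miR-27d with miR-27e, so counting error leaves these unresolved. miR-26a is miR-26b with 2 more bases: miR-26a had 6189 reads and miR-26b 12719 at 3 dpa, against 772 and 366 at 7 dpa. The longer form thus took 32.7% of their reads at 3 dpa (95% exact interval 32.1 to 33.4) and 67.8% at 7 dpa (65.0 to 70.5). The longer miR-181c took 57.2% of the reads of miR-181b and miR-181c at 3 dpa and 72.4% at 7 dpa. miR-454b took 53.7% of its pair at 3 dpa and all 53 reads at 7 dpa. The share of the longer form was highest at 7 dpa of all 4 libraries in 5 of the 7 pairs, but in the pairs miR-130c with miR-130a and miR-27d with miR-27e it was higher at 0 dpa, and in these pairs and in miR-200c with miR-200b the longer form was at most 2.80% of the reads at any stage.

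Pairs of equal length that differ by 1 or 2 bases numbered 26, and the gap between the 2 changes was over 2 on the log2 scale in 10 of them and under 0.58 in 9. The pairs share members, so they are not separate observations. All 10 wide gaps involve let-7b, let-7h, let-7j, miR-19c, miR-29a or miR-208. The widest, miR-736 with miR-208, rests on 6 reads of miR-736 at 3 dpa and a listed 0 at 7 dpa. Counted from the 5′ end, miR-29b and miR-29a differ by A18G, and miR-29a had 27.1% as many reads as miR-29b on day 3 and 141% on day 7, against 64.4% before amputation and 16.5% on day 14. miR-19b and miR-19c differ by G22C, and miR-19c went from 3.67% as many reads as miR-19b at 3 dpa to 25.5% at 7 dpa. miR-10a and miR-10b, which differ by T12A, both fell, and miR-17a and miR-20a, which differ by 2 bases, moved together (1.10 and 1.03). Small differences in sequence thus went with large and with small gaps.

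Neither length nor base content ordered the changes closely. Across the 142 miRNAs, Spearman's rho of the change was 0.17 with length and 0.10 with GC content, given as a description since the miRNAs share both libraries. The 6 miRNAs of 24 bases had a median change of 2.98, and the 7 of 20 bases had -0.08. By the last base of the mature sequence, the median change was 2.08 for the 59 ending in T, 1.29 for the 29 ending in A, 0.33 for the 32 ending in G and -0.14 for the 22 ending in C. By the first base it was 3.25 for the 13 starting in C and 0.78 to 1.96 for the others. The level in libraries outside the comparison went further with the change. Spearman's rho was -0.47 with the 14 dpa level and -0.31 with the 0 dpa level. Levels at 14 dpa themselves had a rho of 0.93 with those at 3 dpa and 0.67 with those at 7 dpa. For levels at 0 dpa these were 0.83 and 0.70. The change subtracts the 3 dpa level. A negative rho and the split by level below can follow from that subtraction, and its part was not tested. Of the 36 miRNAs lowest at 14 dpa, 18 rose and 0 fell (median change 2.55), and of the next 35, 22 rose and 4 fell (2.91). Of the 36 highest, 3 rose and 17 fell (-0.38). The 36 lowest had a median of 9.62 CPM at 14 dpa, and levels under 15.2 CPM could not be resolved at 7 dpa. Falls among them were thus harder to see. The filter mean includes the 7 dpa library, so a miRNA low elsewhere could enter through a high 7 dpa level. These limits bear on these counts and on rho. The part of level in the changes of families and lists was not tested.

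The 7 dpa levels of the miRNAs that rose and fell were compared with the other small RNA libraries. Of the 51 that rose, 47 had their highest level of the 4 libraries at 7 dpa with library totals, 46 with the trimmed mean and 45 with the median of ratios. Of the 32 that fell, 24, 25 and 28 had their lowest level there. These counts share the 7 dpa library with the choice of the miRNAs. At 14 dpa, with library totals, 14 of the 51 were within 1.5-fold of their 3 dpa level, 25 were lower than at 3 dpa and 12 were higher. The plot of selected miRNAs by stage shows the peak at 7 dpa for miR-205, miR-30c, let-7h and miR-150, and levels of miR-203a, miR-30e, miR-181a and miR-725 that were lower at 7 dpa than at 3 and 14 dpa.

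**Figure D5:**
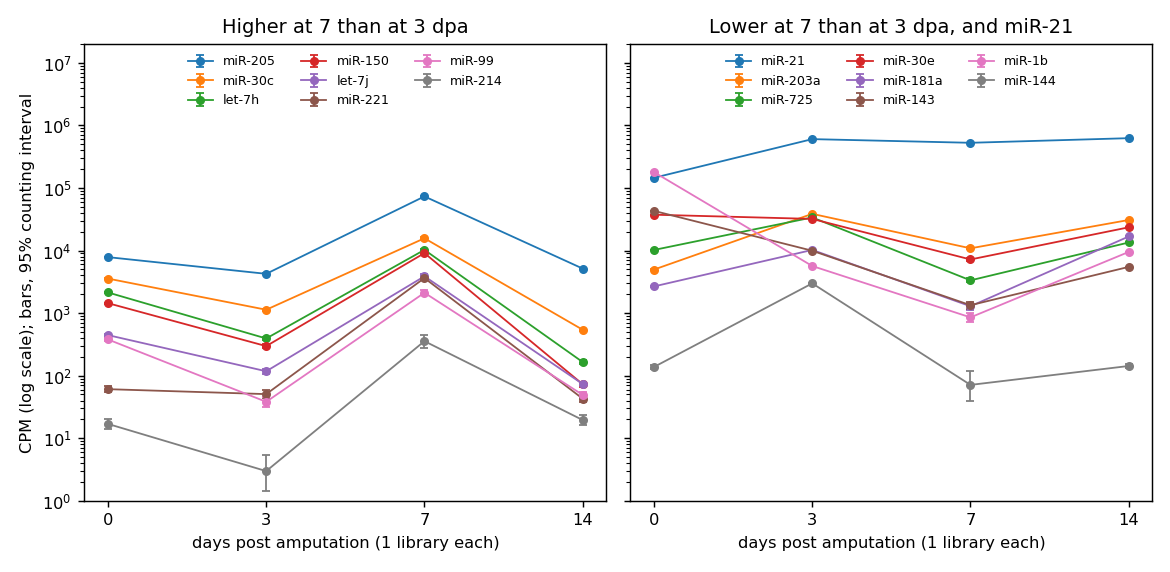
Levels of 16 miRNAs in CPM on a log scale (y axis) at 0, 3, 7 and 14 dpa (x axis), 1 library per stage, with 95% exact counting intervals as bars. The 8 miRNAs on the left have their highest level at 7 dpa, and on the right miR-21 stays the most abundant from 3 dpa on while the other 7 are lower at 7 than at 3 dpa.

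The 11 miRNAs under the filter on low levels had at most 14 reads at 3 dpa and at most 4 reads at 7 dpa and enter no count of rises or falls and no median above. They include miR-153b and miR-137, whose levels are part of the neuronal sum, and miR-16c, which was listed at 0 in every library except 7 dpa, where it had 2 reads.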

How the data were processed

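Small RNA libraries (TruSeq, Genome Analyzer IIx) came from pooled pectoral fin tissue, 1 per stage. The authors removed adapters and merged identical reads with the FASTX Toolkit, named 20 to 25 base tags with miRMiner against miRBase 21, used edgeR and deposited log2 values. Although described as log CPM, all values above 0 (100%) were log2 of whole numbers within 0.01%, so they were read as unscaled read numbers. A listed 0 (0 reads or 1 read) was read as 0.

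Changes are differences of log2(CPM + 1) for miRNAs whose mean over 4 libraries reached 10 CPM, called past 0.58 (1.5-fold). Intervals (95%, exact, from the pair of counts) cover counting error only, since PCR reads are not independent molecules. Python 3.11.15, numpy 2.4.6, pandas 2.3.3, scipy 1.17.1, statsmodels 0.14.6 and matplotlib 3.10.9 were used, and the calculation was tested on simulated data.

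The miRNAs named are the 10 most abundant per library, the 10 largest rises and falls among means of 100 CPM or more, members of 24 lists, and those with 3 reads or fewer in a library and over 50 in the other. miRNAs and lists were chosen with earlier results of these data known. Sequences matched all 153 miRNAs. Of these, 11 carry a second arm's name in that list, so the row name alone does not fix their arm. For miR-221, miR-460, miR-31, miR-126a, miR-199, miR-142a and miR-203b, among others, the listed sequence is close to the zebrafish arm of the second name or largely overlaps it. Genome positions and the mRNA table were not used here. Other scalings, pseudocounts, filters, thresholds and readings of a listed 0 were tried.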

Additional observations from a re-analysis of the deposited data

How the results depend on the processing

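No paired analysis was possible because each stage has 1 library, and for the same reason no library could be left out. The counts of 82 higher and 37 lower miRNAs stayed within 1.5 times of these values under both other pseudocounts, all 3 other filters, a 2-fold threshold, whole counting intervals past 1.5-fold (74 and 32) and a listed 0 read as 1 read, an alternative added after the data were seen. The scaling mattered more. The count of lower miRNAs became 62 with the trimmed mean and 62 with the median of ratios. The median change of 1.09 became -0.16 and -0.25 with these scalings, 0.84 with totals without miR-21 and 1.28 with no filter. At face value, with no scaling for depth, 9 miRNAs were higher and 108 lower and the median was -2.91, which by construction holds the 17.0-fold difference in depth.

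Sign changes are given here for list medians past 0.58 and for single miRNAs whose whole counting interval was past 1.5-fold with library totals. Only the 113 miRNAs that the naming rules above cover were followed in this way. Values nearer 0, or with intervals that reach within 1.5-fold, changed sign under the same 3 scalings too. Among them were let-7a, miR-184, miR-16b, miR-92a, miR-338, miR-455 and the medians of the let-7, skin, miR-181 and miR-26 lists. With the trimmed mean, such list medians changed sign for the miR-23, miR-24 and miR-27 list (-0.43), miR-200 list (-0.35), miR-17 to miR-92 list (-0.28) and list raised in common (-0.065). Such single miRNAs that changed sign were miR-24 -0.43, miR-363 -0.35, miR-19b -0.33, miR-27b -0.29, miR-20a -0.22, miR-26a -0.17, miR-17a -0.15 and miR-181c -0.065. With the median of ratios the same was seen for the miR-23, miR-24 and miR-27 list (-0.52), miR-200 list (-0.44), miR-17 to miR-92 list (-0.37) and list raised in common (-0.15), and for miR-24 -0.52, miR-363 -0.44, miR-19b -0.42, miR-27b -0.38, miR-20a -0.31, miR-26a -0.26, miR-17a -0.24, miR-181c -0.15, miR-19a -0.065, miR-19d -0.053 and miR-20b -0.015. None of these miRNAs is among those called risen or fallen.

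At face value such list medians changed sign for the miR-23, miR-24 and miR-27 list (-3.26), miR-200 list (-3.16), miR-17 to miR-92 list (-3.11), list raised in common (-2.90), list lowered in common (-2.34), muscle list (-2.18), white blood cell list (-2.05), cartilage and mesenchyme list (-1.83), miR-99, miR-100 and miR-125 list (-1.28), miR-29 list (-0.78) and miR-15 and miR-16 list (-0.62). Such single miRNAs that changed sign there were miR-24 -3.26, miR-363 -3.18, miR-19b -3.17, miR-27b -3.11, miR-20a -3.05, miR-26a -3.00, miR-17a -2.99, miR-181c -2.90, miR-19a -2.80, miR-19d -2.80, miR-20b -2.75, miR-142a -2.61, miR-429a -2.50, miR-204 -2.34, miR-133a -2.18, miR-223 -2.05, miR-125b -2.03, miR-23a -2.03, miR-200a -1.98, miR-29b -1.97, miR-155 -1.89, miR-499 -1.89, miR-96 -1.87, miR-196a -1.09, miR-16a -0.93, miR-457a -0.62, miR-2184 -0.60, miR-125a -0.54, miR-145 -0.51, miR-199 -0.38, miR-19c -0.37, miR-130c -0.35, miR-15b -0.32, miR-454b -0.31, miR-30c -0.30, miR-30b -0.29 and miR-15a -0.12. Depth limits the comparison at 7 dpa, where 20 of 153 miRNAs had 3 reads or fewer and 12 of the 51 that rose had under 100 reads.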
